A study of Mus musculus with 12 samples.

Results

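Prox1, Lyve1, Mmrn1, Reln, Pdpn and Ccl21a are genes by which lymphatic endothelial cells, the cells that line lymphatic vessels, are usually recognised. They were taken from the table by name. All 6 of 6 were present in the deposited table of 19547 genes from mouse fat grafts, and all 6 were among the 18551 genes that passed the filter on low counts. The grafts were adipose tissue of C57BL/6 wild-type mice, labelled 16 weeks of age, profiled as 8 week grafts. The control group held fat grafts without added cells. Grafts of the CAL group (cell-assisted lipotransfer) had ASC added, a name in common use for stem or stromal cells from fat. The CAL_Dll4i group had ASC added and Dll4 inhibited. Each group had 4 libraries, 12 in all. The labels do not name the agent that inhibited Dll4 or the source and number of the ASC, and they do not say whether each library came from its own animal, so p-values measure the spread between these libraries, which may be technical.

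Lymphatic vessels take up tissue fluid, lipid and immune cells and return them to the blood. Prox1 is the homeobox transcription factor that sets lymphatic fate in venous endothelial cells, with Sox18 and Nr2f2 acting upstream of it, and it keeps the vessel receptor Flt4 (VEGFR-3) on, through which Vegfc and Vegfd drive lymphatic growth. Dll4 is a Notch ligand of endothelial tip and arterial cells, and Notch signalling restrains sprouting in blood and lymphatic vessels.

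The promoter sequences of 3 of the genes are shown because their RNA moved together across the libraries while the sequences differ in base composition and in the SOX core. The windows run from 250 bases before to 50 bases after a RefSeq start on build GRCm38.p6, and the RefSeq promoter table matched 5 of the 6 genes. They lie on the minus strand at chr1:190170778-190171077 for Prox1, on the plus strand at chr6:60944067-60944366 for Mmrn1 and on the minus strand at chr4:42773942-42774241 for Ccl21a. Capitals mark ACAAT, the core that SOX factors such as Sox18 bind, on either strand. The nuclear receptor motif AGGTCA, which factors such as Nr2f2 bind, and the ETS factor core GGAA were searched on both strands too and are not in capitals.
Prox1: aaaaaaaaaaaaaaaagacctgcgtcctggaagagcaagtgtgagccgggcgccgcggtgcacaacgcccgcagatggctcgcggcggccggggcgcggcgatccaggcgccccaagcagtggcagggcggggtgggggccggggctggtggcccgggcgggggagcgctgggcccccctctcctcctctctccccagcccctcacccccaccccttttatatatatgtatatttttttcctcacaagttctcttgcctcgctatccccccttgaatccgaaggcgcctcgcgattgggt
Mmrn1: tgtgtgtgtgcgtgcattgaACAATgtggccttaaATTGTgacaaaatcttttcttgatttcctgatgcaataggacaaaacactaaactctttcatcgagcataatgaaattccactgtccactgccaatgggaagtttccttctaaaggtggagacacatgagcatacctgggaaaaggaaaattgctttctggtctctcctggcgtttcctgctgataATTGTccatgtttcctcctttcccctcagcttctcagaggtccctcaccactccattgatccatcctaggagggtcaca
Ccl21a: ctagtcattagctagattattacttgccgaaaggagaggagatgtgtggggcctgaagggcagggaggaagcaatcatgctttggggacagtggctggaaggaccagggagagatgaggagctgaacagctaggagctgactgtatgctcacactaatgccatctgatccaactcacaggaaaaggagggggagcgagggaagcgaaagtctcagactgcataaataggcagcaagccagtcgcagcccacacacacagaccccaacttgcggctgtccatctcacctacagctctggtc
The Mmrn1 window held 3 matches of the SOX core and none of the nuclear receptor motif, and the Prox1 and Ccl21a windows held neither. All 3 windows held the ETS core. Prox1 is listed with another start as well, whose window is not shown. Of the 32851 promoter windows of this length in the table, 31% held the SOX core, 16.3% the nuclear receptor motif and 96% the ETS core, so a match is common. G and C made up 64.3% of the Prox1 window, 44.3% of that of Mmrn1 and 53.7% of that of Ccl21a. A match describes the letters in this window and says nothing of binding.

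Ccl21a, the serine form of the chemokine CCL21 in the table's own description, has near-identical copies in the mouse genome. Part of its coding sequence on chromosome 4 (coding positions 71 to 220, counted from 1 at the A of the start codon, GENCODE M21 transcripts) is set beside that of its copy Ccl21b, with the differing bases in capitals.
Ccl21a: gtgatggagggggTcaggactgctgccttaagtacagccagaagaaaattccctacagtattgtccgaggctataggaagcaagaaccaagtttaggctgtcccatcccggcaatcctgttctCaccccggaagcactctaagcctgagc
Ccl21b: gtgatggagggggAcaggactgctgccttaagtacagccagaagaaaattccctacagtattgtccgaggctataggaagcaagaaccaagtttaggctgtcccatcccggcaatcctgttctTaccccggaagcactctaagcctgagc
The differences are T84A and C194T, and over the whole coding length of 402 bases the pair was 99.5% identical. The other copies, Gm10591, Gm13304 and Gm21541, differed from Ccl21a at the same 2 positions. The copies were not analysed here. How reads from them were counted is not stated, so each Ccl21a value below is uncertain in that respect. As background, the serine form is known mainly from lymph node stroma and the leucine form from lymphatic vessels of peripheral tissue.

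On build GRCm38.p6, Prox1 lies at chr1:190118035-190170827, Lyve1 at chr7:110850607-110862953, Reln at chr5:21884454-22344705, Pdpn at chr4:143267409-143299564 and Ccl21a at chr4:42772860-42773991, all on the minus strand. Mmrn1 lies at chr6:60944317-60989378 on the plus strand. In GENCODE M21, antisense genes overlap exons of Prox1 (Gm28172 over 237 bases, Prox1os over 419) and of Reln (Gm10475 over 2552), and 4930578G10Rik spans Ccl21a on the opposite strand, with 870 exonic bases in common. Nothing in the sources used here says if counting was by strand, so reads of such partners cannot be told apart from those of the genes.

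Total counts ran from 55883051 to 70804141 per library, the biological coefficient of variation was 0.237, and library pairs correlated across genes at 0.974 to 0.988 within groups and 0.968 to 0.989 between groups. Adipocyte markers were present in every library, with Adipoq (adiponectin) at 35.8 to 172 CPM, and so were blood endothelial markers, with Pecam1 at 88.7 to 144 CPM. CPM here are read counts scaled to a library size of 1000000 after TMM normalization. Dll4 RNA itself stood at 5.53, 5.68, 6.95 and 4.97 CPM in control replicates 1 to 4, at 4.03, 4.22, 3.60 and 3.01 in CAL and at 4.95, 3.98, 4.35 and 4.39 in CAL_Dll4i. It was lower in CAL than in CAL_Dll4i by a log2 difference of 0.25 ± 0.14 (SE), which did not pass (edgeR adjusted p = 0.713). Every library of CAL and of CAL_Dll4i lay below every control, and neither difference from control passed. Groups without overlap were seen for 7.35% and 4.77% of all genes in those comparisons. An agent that blocks the protein need not change this RNA, so the level is no check of the labels. Skeletal muscle RNA was present in 3 libraries: the 4 muscle genes that passed the filter summed to 95.4 CPM in the first CAL replicate, 205 in the second and 354 in CAL_Dll4i replicate 3, against 1.79 to 9.87 in the other 9. Keratinocyte markers summed to 3.24 to 332 CPM across the libraries (53.2 in CAL replicate 3), mesothelial markers to 0.676 to 8.85 and Schwann cell markers to 28.1 to 33.9.

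The 6 genes differed widely in level. Per transcript length, in control libraries, Pdpn was highest at 142 ± 27.0 TPM (SD, n = 4), followed by Ccl21a at 33.2 ± 24.8. Lyve1 at 2.29 ± 0.746, Mmrn1 at 2.05 ± 1.02 and Reln at 1.60 ± 0.448 did not differ beyond their spread, and Prox1 was lowest at 0.302 ± 0.108. TPM are the authors' length-scaled transcript abundances. In a graft, fewer lymphatic cells and less RNA per cell cannot be told apart.

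Prox1, the fate-setting transcription factor, stood at 1.44, 1.08, 0.585 and 0.912 CPM in control replicates 1 to 4, at 5.10, 5.17, 0.0738 and 2.83 in CAL and at 1.96, 3.50, 5.53 and 2.86 in CAL_Dll4i. Apart from CAL replicate 3, each of the 7 libraries with ASC lay above all 4 controls. CAL replicate 3 lay below every other library. The same arrangement, all 7 above all 4, was met by 182 of 18551 genes (0.981%), and among the 6 lymphatic genes by Prox1 alone. This arrangement was chosen after seeing the data and leaves out the library lowest for Prox1. The share is thus a description and no test.

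Lyve1, a hyaluronan receptor on the surface of lymphatic capillary cells and of some tissue macrophages, stood at 1.86, 2.39, 3.60 and 2.01 CPM in controls. In CAL it stood at 3.86, 5.46, 0.222 and 3.60, and in CAL_Dll4i at 2.76, 6.22, 7.11 and 5.53. The groups overlapped, and CAL replicate 3 was again the lowest of the 12.

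Mmrn1 encodes multimerin 1, a secreted adhesive protein of lymphatic endothelium and of platelets. Its levels were 6.68, 3.21, 2.48 and 3.24 CPM in controls, 16.2, 19.2, 0.207 and 12.8 in CAL and 6.29, 14.5, 29.4 and 15.5 in CAL_Dll4i. CAL replicate 3 lay far below all others, CAL_Dll4i replicate 1 lay within the control range, and the remaining 6 libraries with ASC lay above all controls.

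Reln encodes reelin, a secreted glycoprotein best known for guiding neurons in the brain and also released by endothelium of collecting lymphatics. It stood at 10.2, 5.12, 7.19 and 8.26 CPM in controls, 19.0, 17.9, 4.02 and 9.08 in CAL and 9.57, 14.2, 23.0 and 12.6 in CAL_Dll4i. Here CAL replicate 3 was the lowest library by a small margin, and the groups overlapped.

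Ccl21a draws dendritic cells and T cells that carry the receptor Ccr7 into lymphatics and lymph nodes. It stood at 11.9, 6.92, 4.22 and 24.5 CPM in controls, 39.4, 35.1, 0.0738 and 15.0 in CAL and 13.6, 22.7, 51.3 and 19.9 in CAL_Dll4i. The groups overlapped widely, and CAL replicate 3 stood apart from the other 11 libraries.

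Pdpn encodes podoplanin, a mucin-type surface protein that binds the platelet receptor Clec1b and is made by lymphatic endothelium, fibroblasts and other cells. Its levels were 76.6, 118, 122 and 110 CPM in controls, 54.0, 94.8, 75.1 and 49.7 in CAL and 106, 126, 78.0 and 115 in CAL_Dll4i. Pdpn did not follow the other genes: CAL replicate 3 lay inside its group, and CAL_Dll4i replicate 3, the highest of the 12 libraries for each of the other 5 genes, was the lowest of its group. Stromal cells that can make Pdpn were well represented in every library, with the fibroblast receptor Pdgfra at 185 to 278 CPM. In CAL replicate 3 the 8 fibroblast markers had a median log2 ratio of -0.08 to the other CAL libraries, and the 9 adipocyte markers -0.27. The part of stromal cells in the Pdpn level was not tested.

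**Figure D1:**
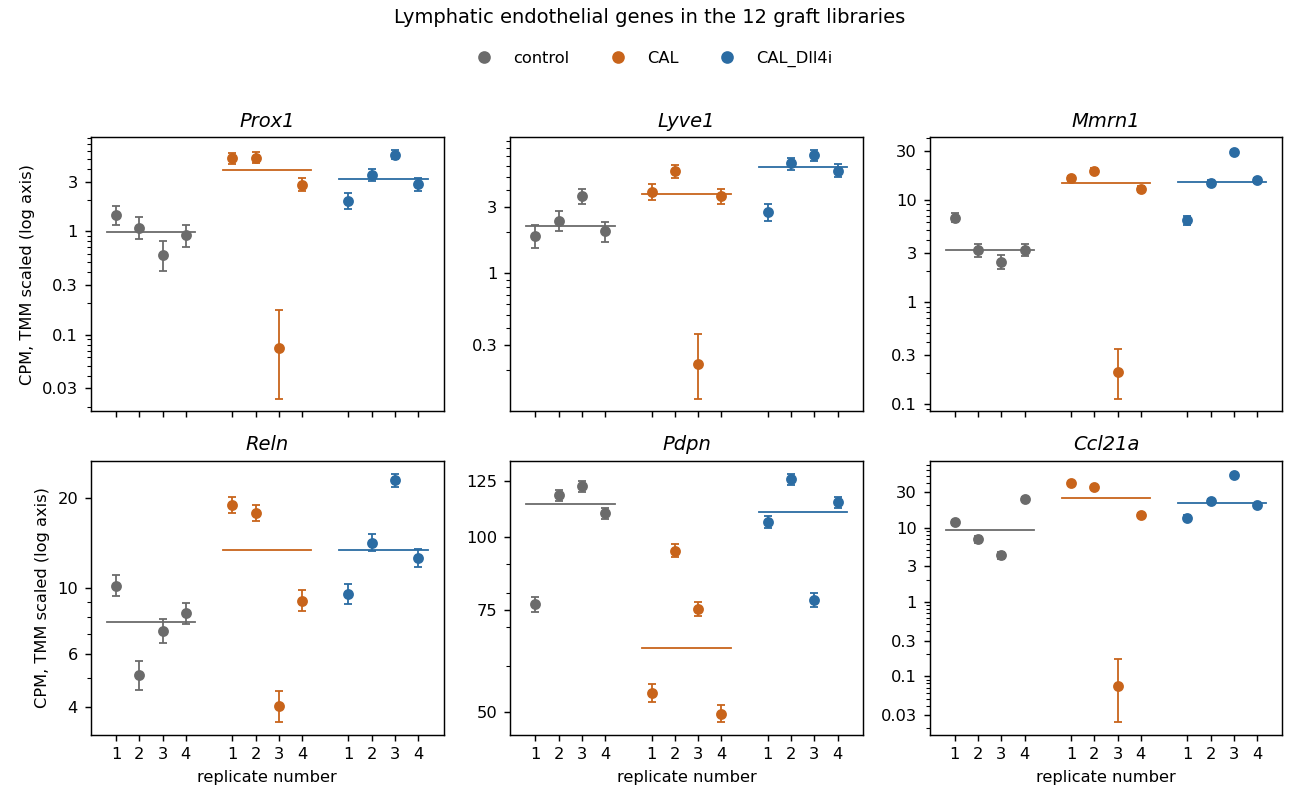
CPM (log axis) of each gene in each library, by group and replicate number, with 95% Poisson intervals as bars and the group median as a line. CAL replicate 3 lies at 0.0738 CPM for Prox1 and Ccl21a, 0.207 for Mmrn1 and 0.222 for Lyve1, below the other 11 libraries, but at 75.1 CPM for Pdpn, within its group.

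CAL replicate 3 came close to lacking the RNA of 4 of the 6 genes. It held 5 reads of Prox1 (exact 95% Poisson interval 1.62 to 11.7), 5 of Ccl21a (the same interval), 14 of Mmrn1 (7.65 to 23.5) and 15 of Lyve1 (8.40 to 24.7). The other CAL libraries held 186 to 296 reads of Prox1, 985 to 2288 of Ccl21a, 843 to 1070 of Mmrn1 and 224 to 304 of Lyve1. Intervals cover counting error only. CAL replicate 3 also held 272 reads of Reln (241 to 306) and 5086 of Pdpn (4947 to 5228), so the low level was not shared by all 6.

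Set against the median of the other 3 CAL libraries, Ccl21a was 475-fold lower in CAL replicate 3, the largest deficit of the 15046 genes with a mean of at least 1 CPM in those libraries. Mmrn1 was 78.3-fold lower (rank 9), Prox1 69.0-fold (rank 12), Lyve1 17.4-fold (rank 25) and Reln 4.44-fold (rank 89). Pdpn was 1.39-fold higher. In the other 11 libraries, taken each against its own group, the log2 ratios of the 6 genes ran from -1.49 to 1.82, so none was 4-fold lower. Of all 15046 genes, 101 (0.671%) were at least 4-fold lower, and 5 of the 6 lymphatic genes were among them. The same share taken for each other library against its own group ran from 0.0867% in CAL replicate 1 to 0.886% in control replicate 3. These ratios describe single libraries and carry no test. The deposited table holds no value of 0, so genes without any read in a library are not among those ranked or counted.

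A stricter comparison, chosen after seeing the data, set CAL replicate 3 against the lowest of the other 11 libraries. Of 15116 genes, 5 (0.0331%) were at least 4-fold below that lowest value. They were Ccl21a at 57.1-fold below, Mmrn1 (0.207 CPM against a next lowest 2.48), Lyve1 at 8.39-fold, Prox1 at 7.92-fold and the muscle sodium channel gene Scn4a at 4.06-fold. Reln, at 4.02 CPM against a next lowest value of 5.12, was not among them. In the other libraries the same count ran from 0 to 14 genes (0.0926% in control replicate 3). Here too, genes without any read in a library could not be counted.

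The other large deficits of CAL replicate 3 against its own group were of other kinds. The 10 genes with the largest deficits outside the 6 were 4 immunoglobulin variable segments (Ighv1-36, Ighv1-20, Ighv5-12 and Ighv2-6-8), which mark B cell clones, and 6 genes of skeletal muscle (Mybpc1, Mylpf, Atp2a1, Scn4a, Ampd1 and Acta1). The muscle genes were higher in CAL replicates 1 and 2 than in CAL replicates 3 and 4. Mylpf, a fast muscle light chain, stood at 25.1, 43.9, 0.207 and 0.152 CPM in CAL replicates 1 to 4. Prox1 was at 2.83 CPM in the fourth CAL library, whose muscle genes summed to 2.78 CPM against 1.79 in the third. The part of muscle tissue in the Prox1 levels was not tested.

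Blood endothelial genes were not missing from CAL replicate 3. The 17 genes of that list with at least 1 CPM had a median log2 ratio of -0.33 to the other CAL libraries, with 13 lower and none 4-fold lower. Pecam1 stood at 88.7 CPM against 144, 116 and 103 in CAL replicates 1, 2 and 4, and Cdh5 (VE-cadherin) at 58.5 against 83.3, 63.6 and 54.5. The summed level of the list was 552 CPM there, the lowest of the 12 libraries, which ran up to 785.

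Further lymphatic genes lay lower in CAL replicate 3, but by less. All 5 of the other lymphatic endothelial markers with at least 1 CPM were lower, with a median log2 ratio of -1.29 and a range of -1.62 to -0.39. The scavenging chemokine receptor Ackr2 stood at 0.960 CPM there and at 2.98, 2.95 and 2.57 in the other CAL libraries. The hyaluronan scavenger Stab2 stood at 11.9 against 22.4, 15.2 and 19.7. Flt4, the receptor for Vegfc and Vegfd, read 3.32 CPM there, the lowest of the 12 libraries and 2.85-fold below the median of the other CAL libraries, which read 9.69, 9.46 and 3.57. The last of these, CAL replicate 4, held 2.83 CPM of Prox1. Nr2f2, an upstream factor also made by venous endothelium and stroma, read 19.1 CPM there and 26.2, 21.6 and 18.7 in the other CAL libraries.

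**Figure D2:**
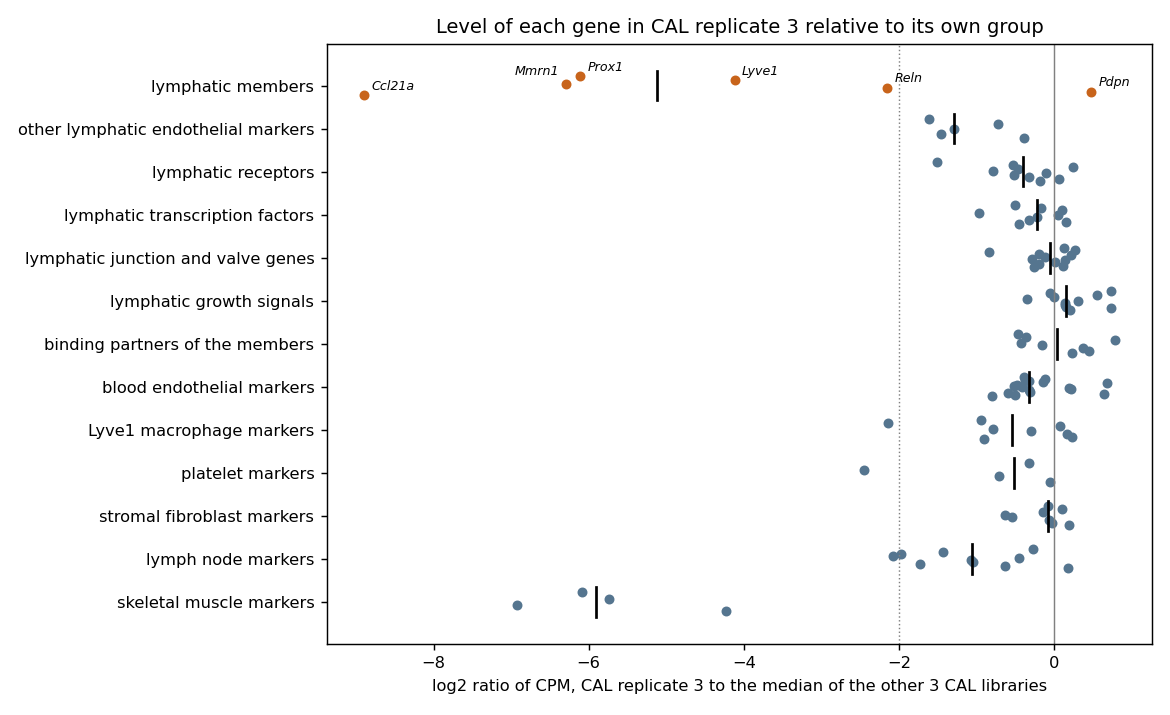
Log2 ratio of CPM in CAL replicate 3 to the median of the other 3 CAL libraries, 1 point per gene with at least 1 CPM, by gene list, with the list median as a bar and 4-fold lower as a dotted line. The 6 lymphatic genes have a median of -5.11, next to -5.91 for 4 muscle genes and -0.33 for blood endothelial markers.

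Other cells can make some of the 6 genes, and their markers were read in the same libraries. Of 8 Lyve1 macrophage markers with at least 1 CPM, 5 were lower in CAL replicate 3 (median log2 ratio -0.55), and Cd163, a haemoglobin scavenger receptor of resident macrophages, was 4.41-fold lower at 2.08 CPM. The broad macrophage genes Mrc1, Adgre1 and Csf1r read 681, 598 and 513 CPM there, each above the median of the other CAL libraries. The whole list, most of it these broad genes, summed to 1889 CPM, within the range of 1628 to 1951 over the other 11 libraries. Its mean log2 CPM, which weighs each gene alike, was lowest in CAL replicate 3, at 4.45 against 4.80 to 5.75 elsewhere. All 4 platelet markers were lower, with a median of -0.52, and 1 of them was at least 4-fold lower, at a log2 ratio of -2.46. Their sum was 29.2 CPM against 32.3 to 55.3 elsewhere. Pf4, a platelet chemokine, stood at 25.7 CPM there and at 30.1 to 33.2 in the other CAL libraries. The part of macrophages or platelets in the Lyve1 and Mmrn1 values was not tested.

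Lymph node tissue also holds lymphatic endothelium and Ccl21a. The B cell and lymph node genes summed to 284 CPM in CAL replicate 3 and to 401, 332 and 339 in the other CAL libraries. Of 10 with at least 1 CPM, 9 were lower, with a median log2 ratio of -1.06, and 1 was at least 4-fold lower, at -2.08. Over all 12 libraries this sum was highest in CAL_Dll4i replicate 3 at 526 CPM and in control replicate 4 at 474. CAL_Dll4i replicate 3 was also the highest library for Ccl21a, and control replicate 4 the highest control. Cr2, a complement receptor of B cells and follicular dendritic cells, was at 4.53 CPM in the CAL library low for Ccl21a. It was lower still, at 1.08, in control replicate 3, which held 4.22 CPM of Ccl21a. The part of lymph node tissue in these levels was not tested.

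The 3 libraries with muscle RNA were the 3 highest of the 12 for Prox1, Mmrn1, Reln and Ccl21a. For Lyve1 they were CAL_Dll4i replicate 3 highest, with CAL replicates 2 and 1 behind CAL_Dll4i replicates 2 and 4. Pdpn went the other way in 2 of them, at 54.0 CPM in CAL replicate 1 and 78.0, the lowest of its group, in CAL_Dll4i replicate 3. High muscle RNA thus went with high levels of 4 of the 6 genes, and the part of neighbouring tissue in these levels was not tested. Of the 5 libraries with ASC and little muscle RNA, CAL replicate 4 and CAL_Dll4i replicates 1, 2 and 4 held 1.96 to 3.50 CPM of Prox1, above the controls at 0.585 to 1.44. The fifth, CAL replicate 3, held 0.0738 CPM, below every control.

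**Figure D3:**
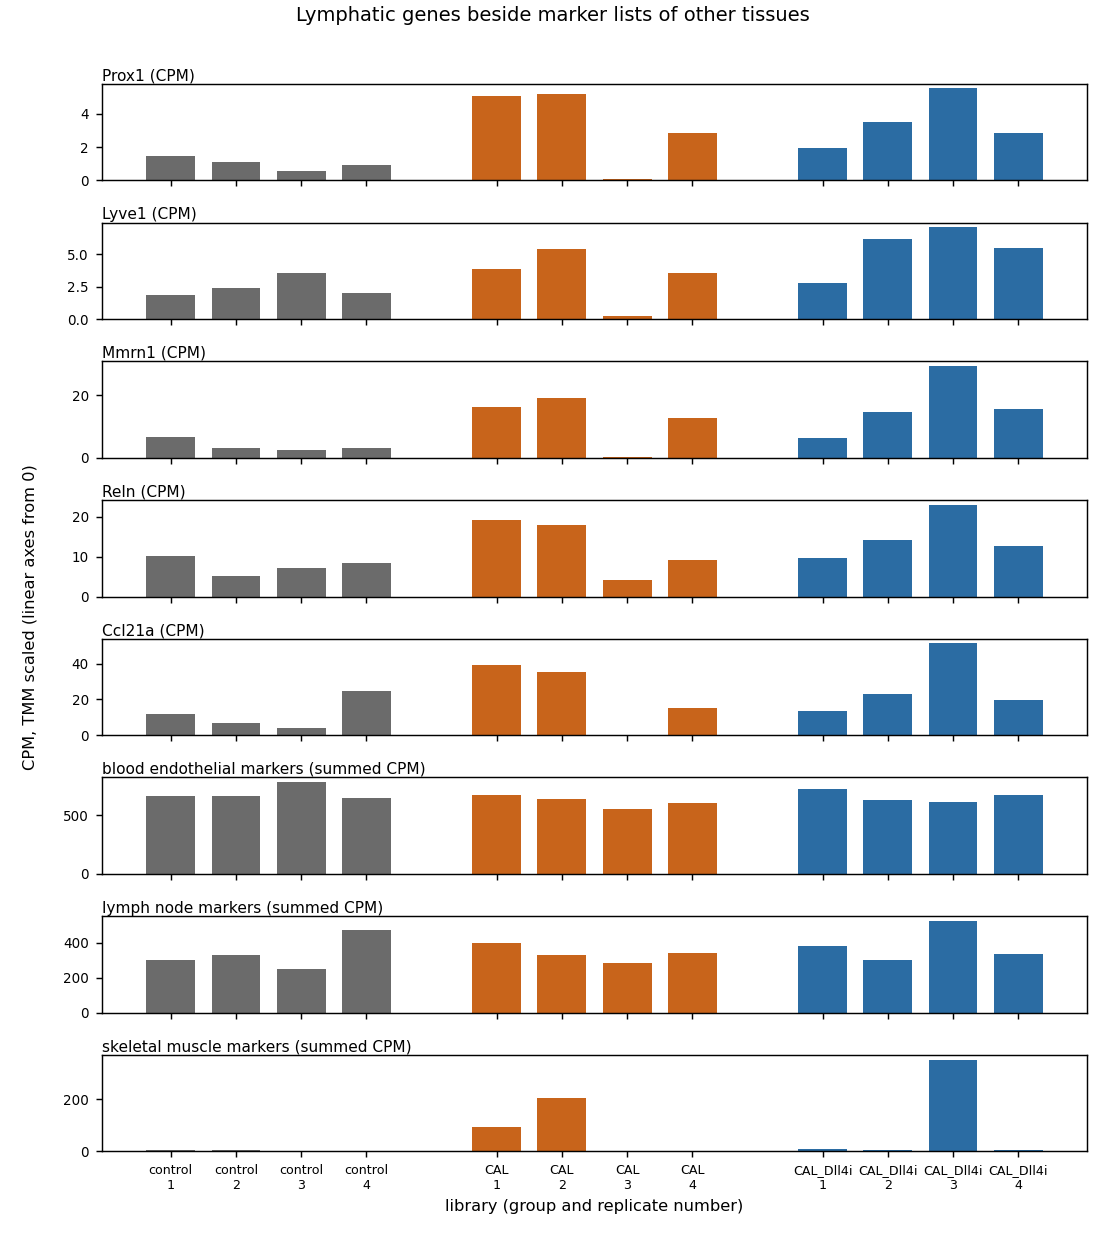
CPM of 5 lymphatic genes and summed CPM of 3 marker lists in each library, on linear axes from 0, coloured by group. The lymphatic genes are highest in CAL_Dll4i replicate 3, which also has 354 CPM of muscle markers and 526 of lymph node markers, and lowest in CAL replicate 3, where Prox1, Lyve1, Mmrn1 and Ccl21a are near 0, Reln is at 4.02 CPM and blood endothelial markers sum to 552 CPM.

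The first comparison asked what added ASC changed. In CAL against control, none of the 6 genes passed an adjusted p of 0.05 (edgeR quasi-likelihood test, Benjamini-Hochberg over all genes), against 1 of 18551 genes overall (0.00539%). Prox1 averaged 1.00 ± 0.354 CPM in controls and 3.29 ± 2.41 in CAL (SD, n = 4), with a log2 fold change of 1.71 ± 0.81 (SE) and an edgeR adjusted p of 0.358. Mmrn1 averaged 3.90 ± 1.88 and 12.1 ± 8.35, at 1.63 ± 0.92 with an edgeR adjusted p of 0.438. The log2 fold changes of the others were 0.91 ± 1.09 for Ccl21a, 0.70 ± 0.44 for Reln, 0.41 ± 0.65 for Lyve1 and -0.64 ± 0.23 for Pdpn, with edgeR adjusted p of 0.736, 0.495, 0.808 and 0.251. No gene of the 6 had groups without overlap, which 7.35% of all genes had. At an unadjusted p under 0.05, Pdpn alone passed, and so did 14.6% of all genes. DESeq2 called 3.61% and voom 0.474% of the genes they tested, and none of the 6. Over the 6 genes the log2 fold changes had a median of 0.81, over all genes tested of -0.01.

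CAL replicate 3 carried much of the spread. Without it, CAL averaged 4.37 ± 1.33 CPM of Prox1 and 16.1 ± 3.20 of Mmrn1 (SD, n = 3), and the coefficient of variation of Prox1 within CAL was 30.5% in place of 73.1%. The log2 fold change of Prox1 against control was then 2.12 ± 0.38, 4.36-fold, with an edgeR adjusted p of 0.0771. For Mmrn1 it was 2.04 ± 0.48, 4.13-fold, with an edgeR adjusted p of 0.102. Neither passed 0.05, which 0.0161% of genes did. At an adjusted p under 0.10, a looser bound used only here and not for calls, Prox1 was among 141 of 18609 genes (0.758%) higher. Reln stood at 0.99 ± 0.34, Lyve1 at 0.80 ± 0.32 and Ccl21a at 1.33 ± 0.64, with edgeR adjusted p of 0.192, 0.235 and 0.329. At an unadjusted p under 0.05, Prox1, Mmrn1, Reln and Lyve1 were higher and Pdpn lower, against 7.81% of all genes higher and 9.28% lower. The library was left out because it stands low for these very genes, so these values describe the other 11 libraries and are no independent test.

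Leaving out the 3 libraries with muscle RNA, an alternative chosen after seeing the data, acted the other way. The log2 fold change of Prox1 in CAL against control was then 0.53 ± 0.93 and that of Mmrn1 0.74 ± 1.11, while Lyve1, Reln and Ccl21a turned negative at -0.37, -0.23 and -0.66. CAL replicates 3 and 4 alone made up CAL in that fit. With all 12 libraries, voom with sample weights gave 0.37 ± 1.07 for Prox1 and 0.36 ± 1.20 for Mmrn1, and negative values of -0.34 for Lyve1 and -0.96 for Ccl21a. Pdpn stood at -0.77 ± 0.22 in the fit without the 3 libraries with muscle RNA (edgeR adjusted p = 0.374), and at -0.67 ± 0.20 with voom.

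The second comparison asked what Dll4 inhibition changed in grafts with ASC. In CAL_Dll4i against CAL, none of the 6 passed, and 0 of 18551 genes did (0%) by edgeR, with 7.42% under an unadjusted p of 0.05 and 1 gene (0.00540%) called by DESeq2. Pdpn was the 1 of the 6 under an unadjusted p of 0.05, and none had groups without overlap, which 3.34% of all genes had. Prox1 averaged 3.46 ± 1.52 CPM in CAL_Dll4i, and its log2 fold change against CAL was 0.08 ± 0.77 (edgeR adjusted p = 0.992). Lyve1 averaged 5.41 ± 1.88 against 3.29 ± 2.20 in CAL, at 0.72 ± 0.65 (edgeR adjusted p = 0.839). Mmrn1, Ccl21a and Reln stood at 0.44 ± 0.89, 0.27 ± 1.08 and 0.25 ± 0.44. Without CAL replicate 3 the log2 fold change of Prox1 was -0.33 ± 0.37, of Ccl21a -0.15 ± 0.64, of Reln -0.05 ± 0.34 and of Mmrn1 0.03 ± 0.47. Prox1, Ccl21a and Reln thus changed sign, as they also did without CAL_Dll4i replicate 3, so no direction can be given for them. Other alternatives moved the values up. Without the 3 libraries with muscle RNA all 6 genes had a positive value, with a median of 0.91, among them Lyve1 at 1.34 ± 0.90, Ccl21a at 1.32 ± 1.46, Prox1 at 0.93 ± 1.00, Mmrn1 at 0.89 ± 1.22 and Reln at 0.89 ± 0.38 (edgeR adjusted p = 0.475). With voom, Ccl21a stood at 2.12 ± 1.40, Mmrn1 at 1.63 ± 1.05 and Prox1 at 1.19 ± 0.97, Lyve1 lay between the last pair, and none of the 6 passed. Pdpn averaged 106 ± 20.4 CPM in CAL_Dll4i and 68.4 ± 20.8 in CAL, at 0.64 ± 0.23 (edgeR adjusted p = 0.659), and at 0.68 ± 0.26 without CAL replicate 3.

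The third comparison set grafts with ASC and Dll4 inhibition against control. Prox1 was the 1 gene of the 6 whose groups did not overlap, at 1.96 to 5.53 against 0.585 to 1.44 CPM, as was so for 4.77% of all genes. Its log2 fold change was 1.79 ± 0.81 (edgeR adjusted p = 0.714). Mmrn1 averaged 16.4 ± 9.58 CPM against 3.90 ± 1.88 in controls, at 2.08 ± 0.93 (edgeR adjusted p = 0.714). Ccl21a stood at 1.18 ± 1.09, Lyve1 at 1.13 ± 0.65, Reln at 0.95 ± 0.45 and Pdpn at -0.01 ± 0.23. No gene of the 6 passed, and 0 of 18551 genes did (0%) by edgeR, while DESeq2 called 61 (0.350%) and none of the 6. Prox1 and Mmrn1 had an unadjusted p under 0.05, as had 6.92% of all genes. Since CAL replicate 3 entered the shared estimate of spread, leaving it out narrowed the standard error of Prox1 here to 0.36 (edgeR adjusted p = 0.544). The 3 comparisons share libraries pairwise, so their values for the same gene are not independent.

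**Figure D4:**
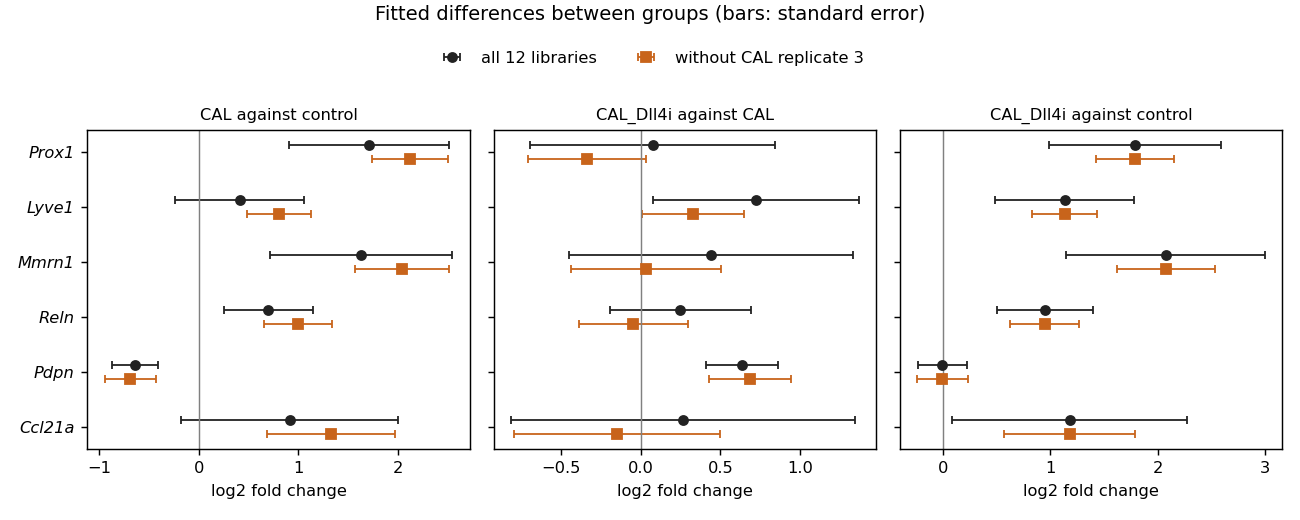
Log2 fold change of each gene with its standard error in the 3 comparisons, from all 12 libraries (circles) and without CAL replicate 3 (squares). Without that library, Prox1 in CAL against control moves from 1.71 ± 0.81 to 2.12 ± 0.38, and in CAL_Dll4i against CAL from 0.08 to -0.33.

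Genes that signal lymphatic growth leaned to lower values in CAL. Against control, 1 of 11 had a higher and 10 a lower fitted value, the median being -0.17 on the log2 scale, and none passed. Among all 18551 genes tested, 9571 had a lower one. Vegfc, the main ligand of Flt4, stood at 6.08 ± 0.606 CPM in controls, 4.09 ± 1.09 in CAL and 5.39 to 5.89 in CAL_Dll4i, a log2 fold change of -0.57 ± 0.16 for CAL against control (edgeR adjusted p = 0.185). In CAL replicate 3 it stood at 5.67 CPM, above the 3.30 to 3.97 of the other CAL libraries. Angpt2, an angiopoietin needed for lymphatic remodelling, stood at 19.9 ± 3.15 CPM in controls and 11.4 ± 1.15 in CAL, at -0.81 ± 0.13 (edgeR adjusted p = 0.0969). Every CAL library lay below every control for Angpt2, and 7.35% of all genes had groups without overlap in that comparison. In CAL_Dll4i against CAL, 10 of 11 growth signals had a higher fitted value (median 0.19), beside 9510 of all 18551 genes, and none passed. Both comparisons use the same CAL libraries. In CAL_Dll4i against control, 4 had a higher and 7 a lower fitted value (median -0.09).

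No receptor or transcription factor of lymphatic endothelium passed. The median log2 fold change in CAL against control was 0.02 over 10 receptors and 0.07 over 10 transcription factors. Flt4 averaged 5.38 ± 0.853 CPM in controls, 6.51 ± 3.54 in CAL and 8.72 ± 2.00 in CAL_Dll4i, 0.70 ± 0.35 for CAL_Dll4i against control (edgeR adjusted p = 0.716). Nr2f2 averaged 19.8 ± 2.43, 21.4 ± 3.42 and 26.8 ± 2.76 CPM, 0.44 ± 0.12 for the same comparison (edgeR adjusted p = 0.681), with every CAL_Dll4i library above every control. Of all genes, 4.77% had groups without overlap in that comparison.

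Of 6 other lymphatic endothelial markers tested, 3 had a higher and 3 a lower fitted value in CAL against control (median 0.06). In CAL_Dll4i against control, 5 of 6 had a higher one (median 0.60), beside 9205 of all 18551 genes. Stab2 had the smallest p of that list, with 6.40 ± 0.400 CPM in controls, 17.3 ± 4.67 in CAL and 11.4 ± 4.56 in CAL_Dll4i. Its log2 fold change in CAL against control was 1.44 ± 0.25 (edgeR adjusted p = 0.0998), with every CAL library, replicate 3 included, above every control. That comparison had groups without overlap for 7.35% of all genes. Among 13 junction and valve genes the median was -0.05, and Efnb2, the ephrin of arteries and lymphatic valves, stood at 9.37 ± 2.80 CPM in controls and 5.34 ± 1.10 in CAL, at -0.81 ± 0.21 (edgeR adjusted p = 0.166). Of 18 blood endothelial markers, 15 had a lower fitted value in CAL against control (median -0.14) and none passed. Of 9 Notch genes of endothelium, 7 had a lower fitted value (median -0.37) and none passed. Among all 18551 genes tested, 9571 had a lower one in the same comparison.

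Partners that bind the products of the 6 genes were measured in the same libraries. Ccr7, the receptor of Ccl21a, ran from 13.1 to 34.5 CPM, and stood at 16.9 in CAL replicate 3. Clec1b, the platelet receptor of podoplanin, stood at 3.12 CPM in CAL replicate 3 and at 1.46 to 2.81 elsewhere. Reelin binds Vldlr and Lrp8. Vldlr averaged 19.8 ± 5.76 CPM in controls and 35.6 ± 5.32 in CAL, at 0.85 ± 0.23 (edgeR adjusted p = 0.179), and Lrp8 ran from 29.4 to 32.9 CPM in controls and from 14.6 to 26.9 in CAL, at -0.58 ± 0.19 (edgeR adjusted p = 0.219). Has2, a synthase of the hyaluronan that Lyve1 binds, averaged 16.3 ± 6.81 and 9.18 ± 2.03 CPM, at -0.83 ± 0.31 (edgeR adjusted p = 0.267). Over the 8 partners tested, 2 had a higher and 6 a lower fitted value in CAL against control, beside 9571 lower of all 18551 genes.

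Likeness of pattern was read as Pearson's r of log2 CPM with the mean standardised level of the 6 genes, as a description without a test. Over 12 libraries, Lyve1, Mmrn1, Ccl21a and Prox1 held ranks 1 to 4 of all genes tested (r = 0.95 to 0.97), Reln rank 11 (r = 0.87) and Pdpn rank 5995 (r = 0.15). The measure contains the 6 genes themselves, and CAL replicate 3 weighs on every r. The 10 other genes most like them were Olfr1372-ps1, Gm15013, Limd1, Scn3a, Smarca5-ps, Lcmt2, Gm15411, Otud7b, Gid4 and Klhl4, at r of 0.84 to 0.92. Over the 11 libraries without CAL replicate 3, the 10 most alike were ND6, Retreg2, Tacc1, Myo18a, Rab6b, Cyren, Mtdh, Gm6142, 9530091C08Rik and Sh3gl3, at r of 0.90 to 0.95. The lists shared 0 genes, so the closest patterns changed with that 1 library. Without it, Reln held rank 3 of all genes, Mmrn1 rank 5, Prox1 rank 10, Lyve1 rank 34, Ccl21a rank 46 and Pdpn rank 11675.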

How the data were processed

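RNA of 12 fat graft libraries was extracted with Trizol and made into libraries with a SureSelectXT RNA Direct kit (a target-capture kit), per the labels' protocols. HISAT2, StringTie and build mm10 are named in the submitters' processing notes, without versions. The table deposited by the authors holds estimated counts, FPKM and TPM per gene and library, per the file headers. The deposited counts are unscaled whole numbers, so rounding changed none, and no value is 0. Genes without any read in a library are thus not in the table. The deposited FPKM, scaled by the authors for length and depth, were used only for single library ratios. The deposited TPM were used for levels between genes and for the same ratios. Depth is given with the results. Columns were matched to samples by name.

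The fit used edgeR 4.0.16 in R 4.3.3: TMM, filterByExpr and the robust quasi-likelihood test over all 12 libraries, with 1 coefficient per group. A gene was called where its p, adjusted by Benjamini-Hochberg over all genes tested, was under 0.05. Standard errors were taken as the log2 fold change over the square root of its F statistic. It was tested on simulated data for CAL against control (18466 genes): 35.1%, 54.4% and 90.9% of genes changed 1.5-, 2- and 4-fold were recovered, with 9 false calls. The changed genes were drawn at random from all genes tested. These rates thus need not hold for genes with a spread as wide as that of Prox1 or Mmrn1. The alternatives scaled by upper quartile or RLE, dropped the filter or asked for 1 CPM in at least 4 libraries, used DESeq2 1.42.0 or limma 3.58.1 (voom, sample weights), fitted the compared groups alone, added a replicate block, or left out each library. Leaving out the 3 libraries with muscle RNA and the comparison with the lowest of 11 libraries were chosen after seeing the data. So was the Prox1 arrangement that leaves out CAL replicate 3. The 6 genes and the 18 gene lists were chosen with earlier results of these data known. Named genes were the 6, Dll4, up to 4 genes per list with the smallest p, binding partners and defining markers, the 10 genes most alike and the 10 with the largest deficit in CAL replicate 3. Plots were made in Python 3.11.15 (matplotlib 3.10.9).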

Additional observations from a re-analysis of the deposited data

Results flagged for a closer look

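Sets of 4 libraries were examined for a library far from the others by Dixon's ratio, the gap to the nearest library divided by the range of the group on the log2 CPM scale, set against its 95% critical value for 4 libraries. Chance alone marks about 1 in 20 groups picked without regard to their values, and 72 were examined. The genes and gene lists were chosen with earlier results of these data known, and several of the genes moved together. That rate thus does not hold for them. The marks that follow describe single libraries and carry no test. In CAL, replicate 3 was the outlying library for Mmrn1 (ratio 0.910, log2 CPM -2.22 against 3.68 to 4.26), Lyve1 (0.869), Prox1 (0.855) and Ccl21a (0.844). It was also the outlying CAL library for the mean of the Lyve1 macrophage markers (0.865), at 4.45 against 5.05 to 5.14. For Reln and Pdpn no library was marked. Other marks fell on the mean of the lymphatic growth signals in control replicate 1 (0.953), of the lymphatic transcription factors in control replicate 3 (0.954) and of the platelet markers in CAL_Dll4i replicate 1 (0.940).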

How the results depend on the processing

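None of the 6 genes was called in any comparison under any alternative, and the lowest adjusted p was 0.0693 (Pdpn, CAL against control, DESeq2). Of 378 fold changes, 359 kept their direction. Counts of genes called in CAL against control moved from 1 to 616 with DESeq2, 88 with voom, 0 with the 2 groups alone, 0 without the muscle libraries and 0 to 6 with a library left out (0 without CAL replicate 1, 6 without control replicate 1, 4 without CAL_Dll4i replicate 3, 3 without CAL replicate 3). DESeq2 called 1 gene in CAL_Dll4i against CAL and 61 in CAL_Dll4i against control. In CAL against control, voom gave -0.34 for Lyve1, -0.96 for Ccl21a, 0.37 for Prox1 and 0.36 for Mmrn1, and leaving out the muscle libraries gave -0.37, -0.23 and -0.66 for Lyve1, Reln and Ccl21a. In CAL_Dll4i against CAL, leaving out single libraries gave -0.33 to 0.38 for Prox1, -0.0451 to 0.53 for Reln and -0.25 to 0.69 for Ccl21a, with negative values without CAL replicate 3 or CAL_Dll4i replicate 3. Pdpn in CAL_Dll4i against control, at -0.01, was 0.0095 with upper-quartile scaling, 0.0215 with voom, 0.12 without the muscle libraries and -0.14 to 0.12 with a library left out. The causes were not tested. In CAL replicate 3, adding 0.5 CPM gave log2 ratios of -3.29, -2.59, -4.56 and -5.95 for Prox1, Lyve1, Mmrn1 and Ccl21a. Against the lowest of 11 libraries the values were -2.99, -3.07, -3.58 and -5.84, with -0.35 for Reln. The replicate block called 1, 0 and 0 genes in the 3 comparisons and none of the 6, and gave 0.0085 for Pdpn in CAL_Dll4i against control. Deviations of same-numbered libraries from their group means correlated at -0.378 to 0.141 over 12 pairs, the next highest value being 0.113. This showed no clear pairing by number, but a weak pairing could not be seen this way. At 5 reads each, counting error limits the Prox1 and Ccl21a levels of CAL replicate 3.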
